A study of Homo sapiens with 12 samples.

Results

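The control libraries of KYSE510 were compared with the control libraries of KYSE150, which asks how these 2 lines differ from each other when HCP5 is not silenced. Both lines are established from human esophageal squamous cell carcinomas, cancers of the stratified epithelium that lines the esophagus. The comparison takes 6 of the 12 libraries of the series, 3 of each line, chosen by the line and the control arm named in their labels. The other 6 libraries are the same lines with HCP5, a long non-coding RNA gene, silenced, and they are used here as further libraries of each line and, at the end, to test whether the difference between the lines differs between the arms. Library titles carry the prefix "sh" in both arms, with no explanation in the labels, so no label calls the control cells untreated. The labels give RPMI-1640 medium with 10% fetal bovine serum for both lines. Each line stands for 1 tumour, and no label says that the 3 libraries of a line came from separate cultures, so the p-values measure the spread between these libraries only.

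Levels are RPKM as deposited, which divides a gene's reads by its exon length and by the library's total. Of 38516 genes in the table, the 16693 with 0.5 RPKM or more in at least 3 of the 6 control libraries were tested with limma on log2(RPKM + 0.5). A log2 difference is KYSE510 minus KYSE150 on that scale, which understates the difference of genes with low values. "Called" means a Benjamini-Hochberg adjusted p under 0.05 over all genes tested. "Called by 1 or more" also asks for a log2 difference of at least 1 in size. A gene can pass the filter through 1 line alone, so a list with many members under the filter favours members that differ. Every single gene whose 2 groups of 3 libraries do not overlap has an exact two-sided permutation p of 0.1, the smallest that 3 against 3 can give, so no single gene reaches 0.05 by that test.

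The control libraries held 20035025 to 27513023 reads, and each KYSE510 library was deeper than each KYSE150 library. Mitochondrial genes took 7.86% to 8.91% of the reads in KYSE150 and 10.22% to 10.99% in KYSE510. KYSE150 replicate 3 lay furthest from another library of its line (chi-square per gene of 40.5 against replicate 2), and without it 9842 genes were called in place of the 9739 that follow. Whether depth or mitochondrial share has a part in the differences was not tested. Across genes, Pearson correlations of the log2 values were 0.979 to 0.989 within a line and 0.840 to 0.858 between lines, as a description, since genes are not independent. At the threshold, 9739 genes were called (58.3%), of which 4394 were higher in KYSE510 (26.3% of genes tested) and 5345 higher in KYSE150 (32%). By 1 or more, 3618 genes were called (21.7%), 1904 higher in KYSE510 (11.4%) and 1714 higher in KYSE150 (10.3%). These shares are the background for every count below. The median log2 difference over all genes tested was -0.07. By 3 or more on the log2 scale, 243 genes were higher in KYSE510 and 104 higher in KYSE150. The 2 groups of 3 libraries did not overlap in 10823 of the genes tested (64.8%). Genes named below for a large difference were taken only from those without overlap. Lack of overlap in them is therefore a description and adds no support.

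**Figure D1:**
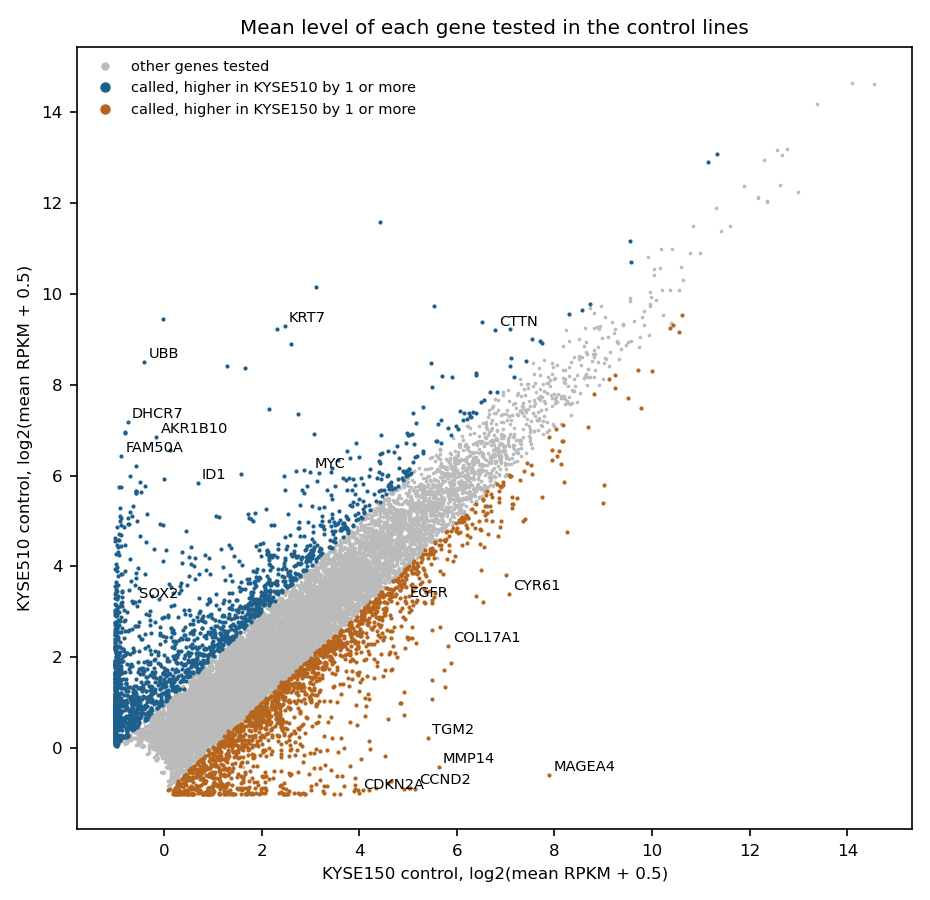
Mean RPKM of each of the 16693 genes tested in the 3 control libraries of KYSE150 (x axis) and of KYSE510 (y axis), both as log2(mean + 0.5), with genes called by 1 or more in colour. UBB, DHCR7 and KRT7 lie far above the diagonal, and MAGEA4, CCND2 and MMP14 far below it.

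Most of the genes furthest apart were near 0 in 1 line and abundant in the other. UBB, which encodes polyubiquitin (chromosome 17, 16380798 to 16382745, GRCh38), had 0.400, 0.0901 and 0.272 RPKM in KYSE150 and 340.4, 399 and 344 in KYSE510. The groups did not overlap, and the log2 difference was 8.92 (SE 0.16, adjusted p = 7.0e-08). DHCR7, the enzyme of the last step of cholesterol synthesis (chromosome 11, 71428193 to 71452868), had 0.0960, 0.0468 and 0.148 RPKM in KYSE150 and 123, 166 and 147 in KYSE510. Its log2 difference was 7.92 (SE 0.13, adjusted p = 6.4e-08). KRT7, a keratin of simple and ductal epithelia, had 6.29, 3.93 and 4.96 RPKM in KYSE150 and 761, 479.5 and 631 in KYSE510. It was present in both lines, without overlap of the groups, and had a log2 difference of 6.81 (SE 0.21, adjusted p = 5.9e-07). The other genes among the 10 most higher in KYSE510 were AKR1C2, TCEAL9, FAM50A, AKR1B10 and TGFBI, besides the non-coding H19 and the mitochondrial pseudogene MTCO2P22, whose reads cannot be told from its near-identical copies. Genes with clone or antisense names were not ranked on either side. RP11-138I1.4, a clone-named gene within UBB, is therefore not among the 10, although its log2 difference was 9.55.

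On the other side stood MAGEA4, a cancer-testis antigen on the X chromosome (chromosome X, 151912509 to 151925170), with 248, 228 and 233 RPKM in KYSE150 and 0.135, 0.283 and 0.0708 in KYSE510. Its log2 difference was -8.49 (SE 0.13, adjusted p = 5.7e-08). CCND2, a D-type cyclin that drives entry into the cell cycle, had 36.1, 31.8 and 36.7 RPKM in KYSE150 and 0.0349, 0.0387 and 0.0457 in KYSE510, a log2 difference of -6.03 (SE 0.10, adjusted p = 6.4e-08). MMP14, a membrane-bound matrix metalloproteinase, had 45.1, 41.4 and 60.3 RPKM in KYSE150 and 0.233, 0.230 and 0.277 in KYSE510. Its log2 difference was -6.03 (SE 0.15, adjusted p = 2.8e-07). In each of these genes every KYSE150 library was above every KYSE510 library, as the rule that picked them required. MAGEA2, MAGEA2B, MAGEA12, CSAG1, FKBP10, TGM2 and PRDX2 completed the 10 most higher in KYSE150. MAGEA2 and MAGEA2B are near-identical copies, so how their reads divide between them is uncertain.

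The label of the lines was checked against markers. Squamous epithelium is specified by the transcription factor TP63, and its basal cells make the keratins KRT5 and KRT14, which give way to KRT4 and KRT13 and then to cornified envelope proteins as cells mature in the esophagus. All 12 squamous markers passed the filter, with a summed level of 1036 to 1738 RPKM in KYSE150 and 1406 to 1946 in KYSE510. The filter can be passed through 1 line alone, so this does not show each marker in each line. PKP1, described below, passed through KYSE150 and was near 0 in KYSE510. Markers of other cell types were low, with 1 of 5 endothelial, 1 of 6 haematopoietic, 1 of 7 fibroblast and 0 of 3 neuroendocrine markers in the table above the filter. Their summed levels were at most 0.116, 41.00, 0.163 and 0.458 RPKM in a KYSE150 library and at most 2.04, 45.03, 0.901 and 0.353 in a KYSE510 library. HBB, PDGFRA and KDR were at 0 in all 6. The members above the filter were CD68, with 37.5 ± 3.23 against 39.99 ± 4.78 RPKM (mean ± SD of 3 libraries, KYSE150 first and KYSE510 after "against", here and below), CDH5, an endothelial cadherin, with 0.0787 ± 0.0152 against 1.55 ± 0.552, and COL1A1, a collagen of fibroblasts, with 0.121 ± 0.0240 against 0.628 ± 0.152. In bulk RNA, fewer cells of a type and less RNA per cell cannot be told apart. Exons of another gene on the same strand cover 81.7% of CD68, so its reads are uncertain.

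Among squamous transcription factors, 5 of 15 were called higher in KYSE510 by 1 or more and 0 higher in KYSE150, with a median log2 difference of 0.51. SOX2, a lineage factor of the esophagus that lies in the often amplified 3q region, had 0.159, 0.252 and 0.0701 RPKM in KYSE150 and 8.32, 9.87 and 8.22 in KYSE510. KYSE150 was thus near the detection limit and KYSE510 was not, with a log2 difference of 3.82 (SE 0.14, adjusted p = 1.4e-06). TP63 itself differed less, at 15.4 ± 0.863 against 19.02 ± 0.504 RPKM and a log2 difference of 0.30 (SE 0.08, adjusted p = 0.018). That call was lost without KYSE150 replicate 1 and without KYSE510 replicate 3, at adjusted p up to 0.0783. KLF5, a factor of proliferating epithelium, was 10.7 ± 1.05 against 31.2 ± 4.003 (log2 difference 1.501, adjusted p = 5.4e-05). GRHL3 and TP73 were also called by 1 or more, at 0.108 against 1.01 and 0.209 against 1.43 RPKM.

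Keratins differed member by member. KRT5 was 607 ± 239 against 242 ± 32.3 RPKM, lower in KYSE510 with a log2 difference of -1.26 (SE 0.26, adjusted p = 0.0048). Its partner KRT14 had 28.5, 23.0 and 81.2 RPKM in KYSE150 and 6.78, 4.87 and 5.13 in KYSE510, a difference of -2.66 (SE 0.43, adjusted p = 0.0015). KRT17, a keratin of activated and hyperproliferative epithelium, went the other way, with 89.2, 49.9 and 133 RPKM in KYSE150 and 736, 343 and 923 in KYSE510 and a log2 difference of 2.87 (SE 0.45, adjusted p = 0.0012). KRT6B followed at 0.612 against 11.2 RPKM, and its reads are uncertain beside the near-identical KRT6A and KRT6C. KRT15, KRT6A, KRT6C and KRT16 were not called. Of differentiated keratins, KRT4 was 0.0681 ± 0.0338 against 7.77 ± 1.93 and KRT13 7.06 ± 3.27 against 54.2 ± 20.1, both called higher in KYSE510. KRT80 went the other way, at 17.2 ± 2.45 against 9.90 ± 3.44 (log2 difference -0.83, adjusted p = 0.028), a call that was lost without KYSE150 replicate 1, without its replicate 3 and with no filter on low values (highest adjusted p = 0.0712). KRT10 was not called, and 6 of 10 listed members were under the filter on low values. KRT8 and KRT18, the pair of simple epithelia, were abundant in both lines and lower in KYSE510, at 867 against 534 and 558 against 343 RPKM (log2 differences -0.70 and -0.69). KRT19 was 0.158 ± 0.0672 against 5.90 ± 0.515, higher in KYSE510.

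**Figure D2:**
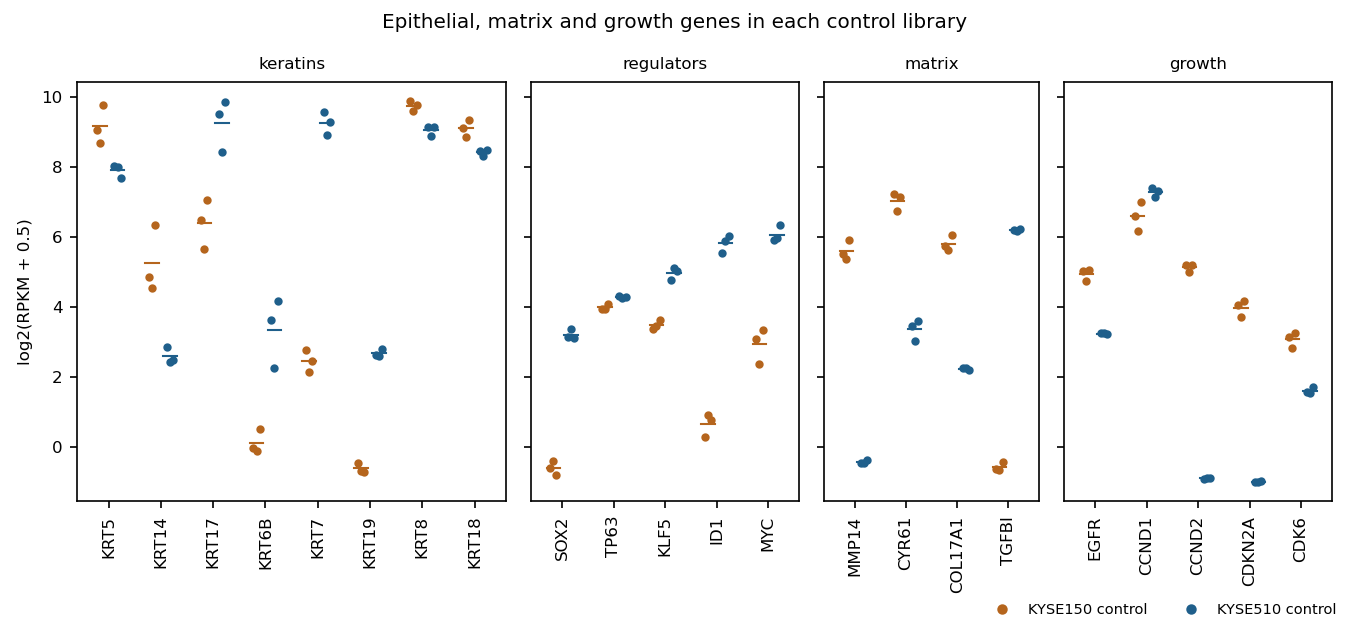
Level of each gene as log2(RPKM + 0.5) in the 3 control libraries of each line (points) with the group mean (bars), for keratins, regulators, matrix genes and growth genes. KRT7, SOX2, ID1 and TGFBI are higher in all 3 KYSE510 libraries, and KRT14, MMP14, CCND2 and CDKN2A higher in all 3 KYSE150 libraries.

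Cornified envelope genes, which toughen the surface of a stratified epithelium, were split. Of 12 members tested, 6 were higher in KYSE510 by 1 or more and 3 higher in KYSE150. A further 9 of 21 in the table were under the filter, so these counts describe only members high enough in at least 1 line. SBSN (suprabasin) had 0.176, 0.172 and 0.177 RPKM in KYSE150 and 16.9, 10.3 and 11.8 in KYSE510, and the groups stood far apart (log2 difference 4.29, adjusted p = 2.2e-06). SPRR2A, a small proline-rich envelope protein with near-identical family members, had 0.352, 0.137 and 0.373 RPKM in KYSE150 and 58.0, 9.26 and 37.9 in KYSE510, so KYSE510 replicate 2 was well below its fellows (log2 difference 5.17, SE 0.60, adjusted p = 0.00027). IVL, PPL, KLK10 and SPRR2D were the other members higher in KYSE510. FLG (filaggrin) had the opposite order, with 10.5, 13.3 and 10.2 RPKM in KYSE150 and 0.300, 0.689 and 0.339 in KYSE510 and a log2 difference of -3.66 (SE 0.18, adjusted p = 5.6e-06). The protease KLK5 was 31.8 against 4.89 RPKM and CDSN 1.45 against 0.284, although 93.8% of the CDSN exons overlap PSORS1C1 on the other strand. S100 proteins, calcium-binding proteins of which many lie beside these genes on 1q, were higher in KYSE510 in 6 of 11 members and higher in KYSE150 in 0. S100A6 was 43.8 ± 4.38 against 357 ± 29.7 RPKM. S100P had 0, 0 and 0.0688 RPKM in KYSE150 and 22.2, 17.03 and 23.9 in KYSE510.

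In the list of 19 junction and adhesion genes, 4 were higher in KYSE510 by 1 or more (CLDN1, CDH2, DSC2 and EPCAM) and 1 higher in KYSE150. That gene was PKP1 (plakophilin 1), a plaque protein of desmosomes, with 7.80, 6.92 and 9.65 RPKM in KYSE150 and 0.0870, 0.0255 and 0.111 in KYSE510 and a log2 difference of -3.90 (SE 0.15, adjusted p = 1.4e-06). CDH2, neural cadherin, had 0, 0.0197 and 0.00890 RPKM in KYSE150 and 4.71, 5.74 and 3.88 in KYSE510, while CDH1, epithelial cadherin, was 31.9 against 20.7 RPKM (log2 difference -0.61, adjusted p = 0.0057). COL17A1, the collagen that anchors basal cells through hemidesmosomes, had 53.7, 48.96 and 66.2 RPKM in KYSE150 and 4.25, 4.30 and 4.12 in KYSE510. The KYSE150 libraries were all above the KYSE510 libraries by more than their spread (log2 difference -3.58, SE 0.12, adjusted p = 9.8e-07). PLEC, a linker to the keratin network, was also higher in KYSE150 at 137 against 62.8 RPKM, and COL7A1, the anchoring fibril collagen, higher in KYSE510 at 13.2 against 32.5. The laminin chain genes LAMA3 and LAMB3 were not called.

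A few genes of glandular epithelia were detected. Of 20 in the table, 15 were under the filter, so the counts on the rest describe only members high in at least 1 line. Of 5 tested, 4 were higher in KYSE510 and 0 higher in KYSE150. FOXA1, a pioneer factor of glandular epithelia, was 0.430 ± 0.170 against 9.26 ± 1.37 RPKM (log2 difference 3.40, adjusted p = 5.4e-06), and MUC1, a membrane mucin, 0.656 ± 0.249 against 8.43 ± 2.19 (2.94, adjusted p = 3.1e-05). AGR2 and GATA6 were the others. CDX2, TFF1 and MUC5AC, defining genes of intestinal and gastric lineages, stood at 0 against 0, 0 against 0 and 0.00466 against 0.00294 RPKM.

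Genes of the mesenchymal programme were also split, 6 of 15 higher in KYSE510 and 4 higher in KYSE150. Another 10 of 25 in the table were under the filter, so these counts describe only members high enough in at least 1 line. SPARC, a secreted matrix protein, had 0.0413, 0.0302 and 0.0638 RPKM in KYSE150 and 27.7, 28.01 and 32.8 in KYSE510, a log2 difference of 5.78 (SE 0.11, adjusted p = 8.4e-08). TGFBI, a matrix protein first found as a target of TGF-beta, had 0.147, 0.131 and 0.237 RPKM in KYSE150 and 73.5, 72.0 and 75.4 in KYSE510. COL5A1, TWIST2, LOX and CDH2 were higher in KYSE510 as well. The transcription factors TWIST1 and SNAI2 were higher in KYSE150, at 3.69 against 0.00682 and 19.4 against 3.37 RPKM, as was AXL. VIM, the defining filament of mesenchymal cells, was 0.424 against 0.0122 RPKM and ZEB1 0.501 against 0.0445, both under the filter.

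Matrix metalloproteinases cut collagen and other matrix proteins, and TIMP proteins inhibit them. In this list 7 of 10 members tested were higher in KYSE150 by 1 or more and 2 higher in KYSE510, with a median log2 difference of -1.39. With 6 of 16 under the filter, the counts and the median describe only members high enough in at least 1 line. Besides MMP14, described above, MMP1 was 3.76 ± 1.03 against 0.739 ± 0.497 RPKM, and MMP2, MMP10, TIMP1, TIMP2 and PLAU, the urokinase protease, had the same direction. MMP7 (matrilysin) had 0, 0.0210 and 0 RPKM in KYSE150 and 4.40, 2.81 and 6.81 in KYSE510, and the inhibitor TIMP3 had 0.0542, 0.0317 and 0.0670 RPKM in KYSE150 and 8.002, 6.15 and 10.7 in KYSE510. PLAUR, the receptor of urokinase, was 22.6 ± 4.85 against 14.8 ± 5.37 and was not called (-0.64, adjusted p = 0.093).

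YAP and TEAD form a transcription complex that responds to cell density and stiffness. Of 13 genes of this pathway, 5 were higher in KYSE150 by 1 or more and 1 higher in KYSE510. CYR61 (now CCN1), a classical target, had 151, 107 and 141 RPKM in KYSE150 and 10.5, 7.62 and 11.7 in KYSE510. Every KYSE150 library was above every KYSE510 library, with a log2 difference of -3.68 (SE 0.19, adjusted p = 5.8e-06). AXL, a receptor kinase, was 49.6 ± 4.92 against 5.88 ± 0.691 RPKM and F3, tissue factor, 292 ± 37.1 against 57.3 ± 15.8, with log2 differences of -2.97 and -2.37. CRIM1 and LATS2 were the others higher in KYSE150. CTGF (now CCN2), the close relative of CYR61, had the opposite sign at 2.36 ± 0.658 against 7.71 ± 4.07 RPKM (log2 difference 1.38, SE 0.43, adjusted p = 0.027). That call was lost without either of KYSE150 replicates 1 and 2 and without either of KYSE510 replicates 1 and 3. It was also lost with no filter on low values, and the highest adjusted p was 0.0964. YAP1 itself was 19.8 against 35.0 RPKM, higher in KYSE510 (log2 difference 0.81, adjusted p = 0.00073), and TEAD1 7.36 against 4.71.

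Among growth factor receptors, 4 of 14 were higher in KYSE510 and 3 higher in KYSE150 by 1 or more. EGFR, the epidermal growth factor receptor, had 32.0, 26.2 and 32.8 RPKM in KYSE150 and 9.01, 8.99 and 8.85 in KYSE510. The log2 difference was -1.70 (SE 0.11, adjusted p = 1.5e-05). FGFR2 and AXL were also higher in KYSE150, and EPHB2, FGFR3, FGFR4 and IGF1R higher in KYSE510, with IGF1R at 3.47 against 10.4 RPKM. ERBB2 was 5.50 against 6.79 and MET 15.4 ± 1.17 against 14.4 ± 1.44, and neither was called. Of the EGFR ligands, AREG (amphiregulin) had 27.98, 14.1 and 25.3 RPKM in KYSE150 and 3.48, 1.97 and 2.98 in KYSE510 and TGFA was 4.67 ± 0.881 against 1.26 ± 0.201 RPKM, both higher in KYSE150. EREG and BTC, at 0.00284 against 1.19 and 0.0829 against 1.47 RPKM, were the members higher in KYSE510.

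Notch receptors carry signals between neighbouring cells and favour differentiation in squamous epithelium. NOTCH3 had 0.133, 0.218 and 0.188 RPKM in KYSE150 and 7.62, 8.32 and 8.73 in KYSE510 and a log2 difference of 3.68 (SE 0.11, adjusted p = 5.5e-07). NOTCH1 was 0.645 ± 0.0595 against 5.32 ± 1.38 RPKM and NOTCH2 3.55 against 3.88, of which NOTCH1 was called. In the whole list 4 of 12 were higher in KYSE510 (NOTCH1, NOTCH3, HES4 and NRARP) and 2 higher in KYSE150 (MFNG and HES2). MFNG, a fringe enzyme that tunes Notch receptors, was 3.68 ± 0.581 against 0.0974 ± 0.0332. Wnt genes gave 4 higher in KYSE510 and 5 higher in KYSE150 of 15 tested, while 12 of 27 in the table were under the filter. WNT5A had 0, 0.00647 and 0.0117 RPKM in KYSE150 and 6.72, 5.54 and 5.10 in KYSE510, and DKK3, a Dickkopf-family secreted protein, had 13.8, 8.91 and 21.1 RPKM in KYSE150 and 0.214, 0.0939 and 0.101 in KYSE510. WNT5B was 2.56 against 0.0440 RPKM, so WNT5A was higher in KYSE510 and the related WNT5B higher in KYSE150.

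ID proteins are targets of bone morphogenetic protein signalling that block differentiation factors. ID1 had 0.729, 1.38 and 1.21 RPKM in KYSE150 and 46.4, 58.3 and 65.0 in KYSE510, a log2 difference of 5.16 (SE 0.19, adjusted p = 1.4e-06). ID4 had 0 in every KYSE150 library and 8.76, 8.37 and 8.59 RPKM in KYSE510. Measured against 3 reads in a library, the level that a count of 0 allows, its mean in KYSE510 was at least 134-fold higher. ID3 was 1.43 ± 0.742 against 13.7 ± 2.76 RPKM and ID2 0.140 against 1.35, and SMAD6, an inhibitor that the pathway induces, 0.351 against 2.65. FST (follistatin), which binds activins and bone morphogenetic proteins, had 26.02, 13.6 and 27.7 RPKM in KYSE150 and 0.420, 0.440 and 0.282 in KYSE510, a log2 difference of -4.64 (SE 0.26, adjusted p = 9.0e-06). Over the TGF-beta and BMP list, 7 of 18 were higher in KYSE510 by 1 or more and 2 higher in KYSE150, the latter being FST and the ligand TGFB2.

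**Figure D3:**
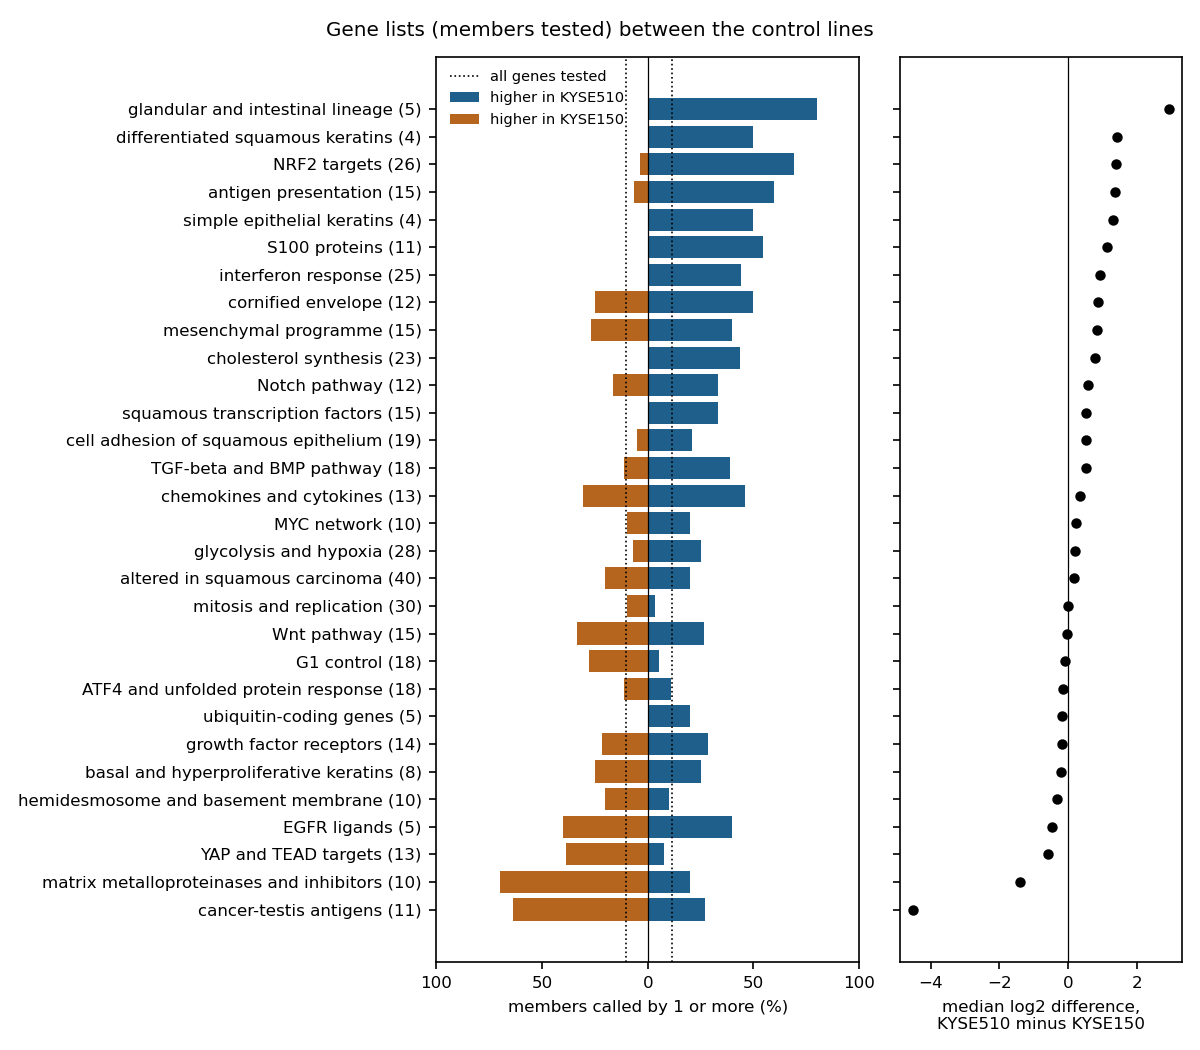
Left, the share of tested members of each gene list called by 1 or more, higher in KYSE510 (right bars) or in KYSE150 (left bars), with dotted lines at the shares over all genes tested (11.4% and 10.3%). Right, the median log2 difference of each list, such as -4.51 for cancer-testis antigens and 2.94 for glandular genes, lists in which 15 of 26 and 15 of 20 members were under the filter, so that their medians describe only members high in at least 1 line.

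NRF2 (gene NFE2L2) is a transcription factor that KEAP1 marks for destruction until oxidative or electrophilic stress releases it. It then binds antioxidant response elements and turns on genes for glutathione, NADPH supply and detoxification, and mutations in this pathway are known in esophageal squamous carcinoma. Of 26 genes of the pathway list, 18 were called higher in KYSE510 by 1 or more and 1, KEAP1, higher in KYSE150. The median log2 difference was 1.38, beside -0.07 over all genes. AKR1C2, an aldo-keto reductase, had 0.0464, 0.0603 and 0.123 RPKM in KYSE150 and 127, 133 and 112 in KYSE510, and its neighbour AKR1C1 0.0114, 0.0167 and 0.0201 RPKM in KYSE150 and 30.3, 29.9 and 26.1 in KYSE510. Each was near 0 in KYSE150 and abundant in KYSE510, although reads are uncertain among the near-identical AKR1C genes. AKR1B10, a further reductase on chromosome 7, had 0.286, 0.475 and 0.429 RPKM in KYSE150 and 148, 105 and 91.8 in KYSE510. Its log2 difference was 6.99 (SE 0.19, adjusted p = 3.8e-07).

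Other enzymes and transporters of the list were also higher in KYSE510. GPX2, a glutathione peroxidase, had 0.1998, 0.0650 and 0.353 RPKM in KYSE150 and 50.8, 62.4 and 59.0 in KYSE510 (log2 difference 6.37, adjusted p = 3.5e-07). The export pump ABCC2 was 0.369 ± 0.0862 against 20.5 ± 2.17 RPKM. PGD, which makes NADPH in the pentose phosphate pathway, was 44.6 ± 1.33 against 247 ± 20.4, a log2 difference of 2.45, SE 0.09, adjusted p = 1.4e-06. ME1, malic enzyme, was 4.29 ± 0.714 against 29.7 ± 3.57, and SLC7A11, the cystine importer that feeds glutathione synthesis, 0.849 ± 0.379 against 7.24 ± 1.06. GCLC and GCLM, the subunits that make the glutathione precursor, differed by 1.12 and 1.32. NQO1, the usual marker of the pathway, was high in both lines at 100.4 ± 12.3 against 174 ± 13.3 and differed by 0.79 (SE 0.12, adjusted p = 0.00087). CBR1 and NFE2L2 were not called. KEAP1 had 10.3, 9.66 and 11.4 RPKM in KYSE150 and 4.11, 4.44 and 4.32 in KYSE510, a log2 difference of -1.19 (SE 0.10, adjusted p = 5.3e-05). Of the genes around KEAP1 on 19p, CDC37 and AP1M2 were also called lower in KYSE510 (log2 differences -0.77 and -0.78). S1PR5 was called higher there (0.73), and ATG4D, KRI1 and CDKN2D were not called. No sequence variant was examined, so a mutation of KEAP1 or NFE2L2 was not tested.

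Stretches of promoter are shown for 3 members to place the motif of this factor. Promoter sequences are from RefSeq (GRCh38.p14), of which 18 of the 26 listed genes had one. The core of the element, TGACNNNGC, was searched on both strands in the 250 bases before each start, and 6 of the 18 promoters held it, beside 11.03% of 27305 promoters. Those were GCLM, TXNRD1, PGD, ME1, CBR1 and GPX2, of which CBR1 was not higher in KYSE510. Of the 18 genes 15 were higher in KYSE510, and 5 of those 15 held the core. Each line gives 80 bases, 5′ to 3′ on the strand of the gene, with the match in capitals. The match starts 99 bases before the start in TXNRD1, 137 in ME1 and 201 in PGD, where it lies on the opposite strand. A match is a description of letters and not a measured binding site.
TXNRD1, chr12:104215644-104215723, plus strand: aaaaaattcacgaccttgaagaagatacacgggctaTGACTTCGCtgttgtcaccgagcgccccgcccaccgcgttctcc
ME1, chr6:83431145-83431224, minus strand: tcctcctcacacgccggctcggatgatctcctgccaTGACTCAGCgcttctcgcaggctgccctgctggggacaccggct
PGD, chr1:10398827-10398906, plus strand: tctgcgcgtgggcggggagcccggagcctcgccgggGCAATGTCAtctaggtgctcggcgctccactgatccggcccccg

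Cholesterol synthesis runs from acetyl-CoA through mevalonate and squalene to cholesterol, under the transcription factor SREBP2. Of 23 genes, 10 were higher in KYSE510 by 1 or more and 0 higher in KYSE150, with a median log2 difference of 0.80. Upstream, HMGCS1, an early enzyme of the mevalonate steps, had 8.90, 7.69 and 8.42 RPKM in KYSE150 and 53.9, 61.5 and 59.8 in KYSE510, with no overlap of the groups (log2 difference 2.74, SE 0.10, adjusted p = 1.0e-06). ACAT2, at the head of the pathway, had 0.894, 0.770 and 0.912 RPKM in KYSE150 and 29.5, 27.7 and 24.1 in KYSE510, but 43.0% of its exons overlap SOD2 on the other strand. Further down, SQLE was 6.38 ± 0.808 against 40.7 ± 1.79 RPKM and FDFT1 7.18 ± 1.37 against 31.1 ± 6.88. SREBF2, which encodes SREBP2, was 3.98 ± 0.372 against 14.7 ± 0.992.

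DHCR7, the last enzyme of the pathway, was near 0 in KYSE150, as given above. NADSYN1, whose start lies next to that of DHCR7 and which is read the other way, was also low there, at 1.40 ± 0.327 against 17.8 ± 1.74 RPKM, a log2 difference of 3.28 (adjusted p = 3.2e-06).

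**Figure D4:**
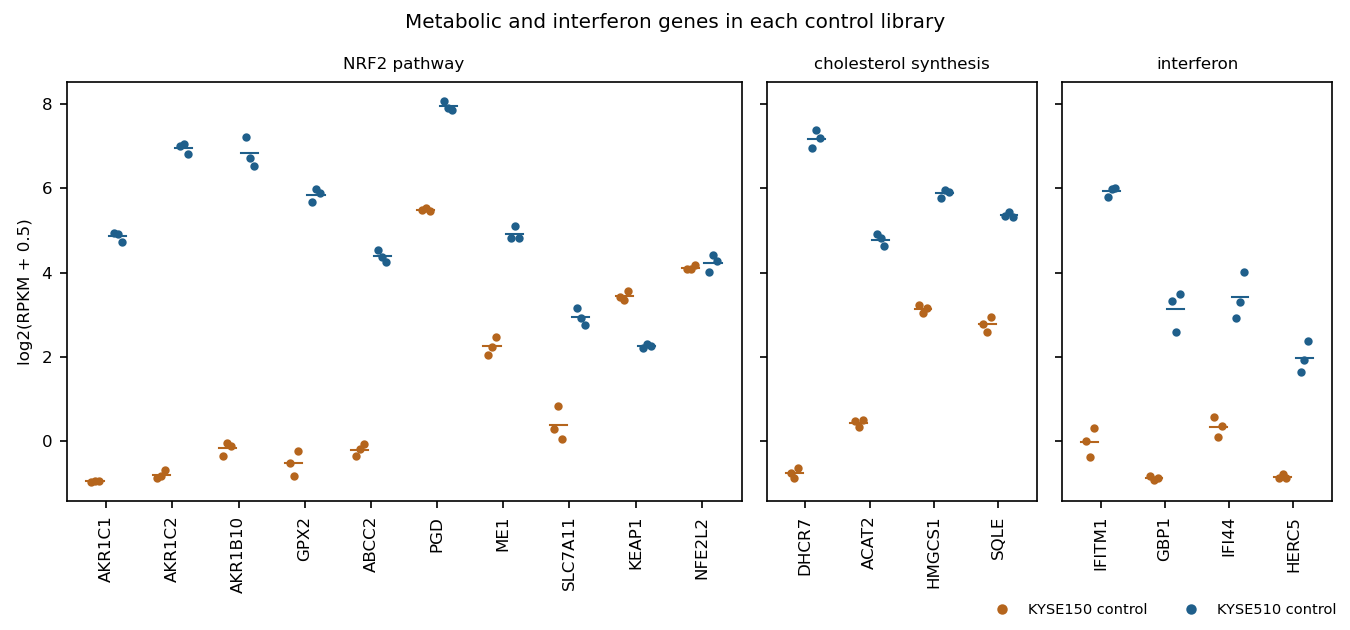
Level of each gene as log2(RPKM + 0.5) in the 3 control libraries of each line (points) with the group mean (bars), for NRF2 pathway, cholesterol synthesis and interferon genes. In this plot KEAP1 alone is lower in KYSE510, NFE2L2 overlaps between the lines, and all other genes are higher in all 3 KYSE510 libraries.

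Interferons induce antiviral genes through STAT and IRF factors. Of 25 such genes tested, 11 were higher in KYSE510 by 1 or more and 0 higher in KYSE150, with a median log2 difference of 0.94, and 10 listed genes were under the filter. IFITM1, a membrane protein that blocks virus entry, had 0.508, 0.271 and 0.734 RPKM in KYSE150 and 54.8, 62.7 and 64.1 in KYSE510. Its log2 difference was 5.95 (SE 0.18, adjusted p = 5.0e-07), and 32.5% of its exons are shared with IFITM2 on the same strand. GBP1, a guanylate-binding protein, had 0.0600, 0.0293 and 0.0441 RPKM in KYSE150 and 9.53, 5.53 and 10.7 in KYSE510, and IFI44 had 0.980, 0.574 and 0.778 RPKM in KYSE150 and 7.14, 9.30 and 15.7 in KYSE510. HERC5, the ligase that attaches ISG15, was 0.0566 ± 0.0219 against 3.55 ± 1.08 RPKM, and BST2, which tethers budding virus, 0.0556 ± 0.02002 against 3.55 ± 2.27. The list did not move as one. ISG15 was 14.7 ± 2.87 against 8.17 ± 4.54 (log2 difference -0.91), called only just, at an adjusted p of 0.0495 and with overlapping groups. OAS3 was 8.24 against 8.13 and IFITM3 71.2 ± 28.7 against 54.5 ± 8.51, neither of them called, and STAT2 was called lower in KYSE510 at 3.30 against 1.90. The interferon-stimulated MX1 was 0.103 against 0.253 RPKM, under the filter in both lines.

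The interferon-stimulated response element, searched as GAAA, any 2 bases and GAAA on either strand, was found in the 250 bases before the start of 15 of the 25 listed genes that RefSeq held, beside 3.07% of all 27305 promoters. Of the 12 matched genes called higher in KYSE510, 8 held it. ISG15, IFIT1, IFITM3, OAS3 and SAMD9, which were tested and not called higher, held it too. The stretches of HERC5 and IFI44 are shown as examples of the higher genes, and that of IFI6, 0.414 against 3.18 RPKM, for its repeated copies. Capitals mark 1 match in each, which lies on the opposite strand in HERC5 and IFI44.
HERC5, chr4:88457010-88457089, plus strand: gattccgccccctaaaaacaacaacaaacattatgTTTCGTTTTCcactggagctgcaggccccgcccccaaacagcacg
IFI44, chr1:78649709-78649788, plus strand: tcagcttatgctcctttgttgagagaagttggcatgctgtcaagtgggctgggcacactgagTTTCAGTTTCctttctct
IFI6, chr1:27672263-27672342, minus strand: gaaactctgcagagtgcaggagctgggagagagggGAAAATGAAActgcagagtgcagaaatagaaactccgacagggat

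Antigen presentation genes split within the class I family. HLA-B was 12.95 ± 3.02 against 92.5 ± 15.4 RPKM and HLA-C 50.6 ± 10.8 against 149 ± 24.8, both higher in KYSE510, while HLA-E was 93.2 against 49.4 and HLA-F 13.02 ± 1.17 against 3.73 ± 0.674, higher in KYSE150. These genes share sequence and vary between people, so the division of reads among them is uncertain. The shared light chain B2M was 12.3 ± 1.29 against 30.7 ± 5.23, and the immunoproteasome subunits PSMB8 and PSMB9 16.3 against 42.9 and 2.13 against 12.4. The class II chaperone CD74 was 0.0782 ± 0.0281 against 3.65 ± 0.373. In all, 9 of 15 were higher in KYSE510 by 1 or more and 1, HLA-F, higher in KYSE150. Of chemokines and cytokines, 6 of 13 were higher in KYSE510 and 4 higher in KYSE150. The other 16 of 29 in the table were under the filter, so these counts describe only members high enough in at least 1 line. CXCL1, which attracts neutrophils, had 0 in every KYSE150 library and 29.1, 16.9 and 23.3 RPKM in KYSE510, at least 199.9-fold higher in KYSE510 against 3 reads in a library. IL6 had 2.34, 1.20 and 1.60 RPKM in KYSE150 and 0.0804, 0.0383 and 0.0351 in KYSE510, and IL1A and LIF were also higher in KYSE150, at 3.53 against 0.563 and 4.60 against 0.978 RPKM.

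Metallothioneins bind zinc and copper. MT2A had 498, 442 and 614 RPKM in KYSE150 and 67.1, 50.2 and 47.3 in KYSE510, and MT1E had 15.9, 14.5 and 18.6 RPKM in KYSE150 and 0.0790, 0 and 0 in KYSE510. Both were higher in every KYSE150 library, with log2 differences of -3.23 and -5.00, and near-identical members of this family make the division of reads uncertain. Glycolysis and hypoxia genes gave 7 of 28 higher in KYSE510 and 2 higher in KYSE150. ENO1 was 316 ± 4.22 against 753 ± 24.8 RPKM, ALDOC 0.206 ± 0.111 against 8.90 ± 1.36 and BNIP3 1.81 ± 0.248 against 8.71 ± 1.18, whereas SLC2A3, a glucose transporter, was 2.02 ± 0.426 against 0.00225 ± 0.00390 and PFKP 69.9 ± 9.21 against 32.5 ± 2.81. GAPDH was 987 ± 92.2 against 1049 ± 74.97 and was not called. ATF4 and unfolded protein response genes were near the background, 2 of 18 being higher in KYSE510 and 2 higher in KYSE150.

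Cell-cycle genes were read as G1 control, the phase before DNA synthesis, and as mitosis and replication. Of 18 G1 genes, 5 were higher in KYSE150 by 1 or more (CCND2, CDKN2A, CDKN2B, CDKN2C and CDK6) and 1, CCNE1, higher in KYSE510 at 1.9997 ± 0.0826 against 7.999 ± 0.984 RPKM. CCND1, the D-type cyclin of the 11q13 region, was 99.1 ± 28.7 against 157 ± 13.6, a log2 difference of 0.70 (SE 0.20, adjusted p = 0.020). This call was lost without KYSE150 replicate 1, without either of KYSE510 replicates 1 and 3, and with no filter on low values. The highest adjusted p was 0.0697. CDK6 was 8.07 ± 1.29 against 2.55 ± 0.211 and CDKN2C, an inhibitor of CDK4 and CDK6, 5.89 ± 0.611 against 0.400 ± 0.108. RB1 was 5.17 against 5.09 and not called. Of 30 mitosis and replication genes, 1, TYMS, was higher in KYSE510 and 3 (CCNB1, CENPF and MCM3) higher in KYSE150, with a median of -0.01. MKI67, the usual marker of cycling cells, was 104 ± 16.8 against 79.1 ± 18.8 and was not called. MYC, which drives growth and ribosome production, had 7.97, 4.67 and 9.76 RPKM in KYSE150 and 59.6, 61.8 and 80.9 in KYSE510, with no overlap (log2 difference 3.14, SE 0.25, adjusted p = 4.9e-05). Its antagonist MXD3 was 59.7 ± 5.87 against 16.96 ± 0.514.

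CDKN2A encodes the G1 inhibitors p16 and p14ARF and is often lost in this cancer, together with its neighbours on 9p21. It lies at chromosome 9, 21967753 to 21995301, and had 16.1, 12.5 and 17.7 RPKM in KYSE150 and 0, 0 and 0.00840 in KYSE510. CDKN2B, next to it, had 1.62, 2.81 and 1.41 RPKM in KYSE150 and 0 in every KYSE510 library, and the non-coding CDKN2B-AS1 across them was 0.193 ± 0.0662 in KYSE150 and 0 in every KYSE510 library. MTAP, the next coding gene toward the telomere, was 2.70 ± 0.416 against 3.30 ± 0.455 and was not called (log2 difference 0.25, SE 0.14, adjusted p = 0.17). The near absence in KYSE510 covered CDKN2A and CDKN2B, not MTAP. A non-coding transcript annotated across the whole region was 8.65 ± 1.20 against 12.8 ± 2.20. DNA was not measured. The 250 bases before the RefSeq start used for CDKN2A are shown with each of their 24 CG dinucleotides, the sites that methylation can occupy, in capitals. They lie beyond the end of the gene at 21995301 and inside CDKN2B-AS1. Other starts of CDKN2A were not examined, so the stretch stands for this start alone. The median over the promoters of genes tested that RefSeq held (9284 of 16693) was 21.
CDKN2A, chr9:21995325-21995574, minus strand: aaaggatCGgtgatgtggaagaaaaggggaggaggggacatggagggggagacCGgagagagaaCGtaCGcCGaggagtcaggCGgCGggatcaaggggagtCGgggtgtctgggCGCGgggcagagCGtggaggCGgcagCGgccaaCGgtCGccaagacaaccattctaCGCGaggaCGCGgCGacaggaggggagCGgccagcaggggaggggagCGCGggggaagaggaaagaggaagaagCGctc

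Of 40 tested genes recurrently altered in esophageal squamous carcinoma, 8 were higher in KYSE510 by 1 or more and 8 higher in KYSE150. At 11q13, CTTN (cortactin), which organises actin at the cell edge, had 109, 109.9 and 109 RPKM in KYSE150 and 652, 545 and 574 in KYSE510. All KYSE510 libraries stood above all KYSE150 libraries (log2 difference 2.42, SE 0.10, adjusted p = 2.0e-06). FADD, the adaptor of death receptors, was 34.2 ± 2.73 against 104 ± 2.22 RPKM, with 54.9% of its exons under an antisense gene, and ANO1, a chloride channel, 0.195 ± 0.121 against 1.48 ± 0.901. PIK3CA was 2.23 ± 0.105 against 1.39 ± 0.317 (log2 difference -0.55, adjusted p = 0.015), and 36.2% of its exons overlap KCNMB3 on the other strand. FAT1 was higher in KYSE510 at 12.3 against 30.1, and PTCH1 and TERT higher in KYSE150 at 0.974 against 0.0576 and 1.14 against 0.209. HCP5, the gene silenced in the other arm, was low in both lines at 0.770 ± 0.0220 against 1.39 ± 0.470, a log2 difference of 0.54 (SE 0.19, adjusted p = 0.040). That call was lost when any control library except KYSE510 replicate 1 was left out, and with no filter on low values. The highest adjusted p was 0.108.

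Cancer-testis antigens are normally made in germ cells and reappear in tumours. In this list 7 of 11 were higher in KYSE150 by 1 or more and 3 higher in KYSE510, with a median log2 difference of -4.51. In the table, 15 of 26 members were under the filter, so the counts and the median describe only members high in at least 1 line. MAGEA12, on Xq28, had 29.0, 26.6 and 33.4 RPKM in KYSE150 and 0.0428, 0.0204 and 0.0374 in KYSE510. Its neighbour CSAG1 had 29.7, 28.8 and 37.6 RPKM in KYSE150 and 0.0381, 0.0725 and 0.0333 in KYSE510. MAGEA3 was shared by both lines at 83.8 ± 13.98 against 49.97 ± 3.18 RPKM, and MAGEA6, nearly identical to it, was 44.2 against 8.67. MAGEA9, MAGEA9B and GAGE12J were the members higher in KYSE510, at 0 against 1.74, 0 against 3.15 and 0 against 0.751 RPKM. Reads between such copies are uncertain, so these 3 are better read as families.

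A count was then made of genes with at most 3 reads in every control library of 1 line and a mean of 5 RPKM or more in the other. It gave 117 genes, pseudogenes and non-coding genes among them, 87 near 0 in KYSE150 and 30 near 0 in KYSE510. UBB and DHCR7 lie just outside, since some KYSE150 libraries held more than 3 of their reads. In the HCP5-silenced libraries of the same line, 69 of the 87 and 28 of the 30 again had at most 3 reads in each. Near 0 in KYSE150 were FAM50A, a spliceosome-associated gene on Xq28, with 0.0389, 0.0380 and 0.0515 RPKM in KYSE150 and 102, 79.2 and 77.5 in KYSE510, and TCEAL9, with 0.0455, 0.133 and 0.0402 RPKM in KYSE150 and 125, 128 and 113 in KYSE510. In the silenced KYSE150 libraries FAM50A had up to 9 reads and TCEAL9 up to 5, so neither is among the 69. CTSL, the lysosomal protease cathepsin L, was 53.4 ± 8.37 RPKM in KYSE510, the aldehyde dehydrogenase ALDH3A1 53.4 ± 9.39, and STOM (stomatin) 31.4 ± 5.97. In this set were also TXNIP, SPP1 and IGFBP4, chosen here after their values were seen. Near 0 in KYSE510 was PRDX2, a peroxiredoxin that removes peroxide, with 16.4, 16.1 and 21.005 RPKM in KYSE150 and 0.0397, 0.0189 and 0.0347 in KYSE510. SLC38A5, an amino acid transporter, was 14.4 ± 0.637 RPKM in KYSE150, and PTPRG, a receptor phosphatase on 3p, 5.86 ± 0.491. Most stood alone: 22 of the 87 and 6 of the 30 had another such gene within 2 places in genome order.

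Of the ubiquitin-coding genes, only UBB was called by 1 or more. RPS27A, which encodes ubiquitin fused to a ribosomal protein, was 107 ± 13.3 against 166 ± 13.7 RPKM (log2 difference 0.63, SE 0.12, adjusted p = 0.0027), and FAU, which encodes a ubiquitin-like fusion, 136 against 119.8. Next to UBB on 17p, NCOR1 was 10.4 ± 0.924 against 7.42 ± 0.174, PIGL 2.75 ± 0.167 against 2.04 ± 0.0946 and CENPV 4.66 ± 0.380 against 4.54 ± 0.494, so the near absence in KYSE150 did not extend to these neighbours. RP11-138I1.4, which lies within UBB on the opposite strand, was 0.483 ± 0.380 against 699 ± 71.4, and 28.4% of the UBB exons overlap it.

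The differences were also read in genome order, to see whether neighbouring genes differed together. DNA copy number was not measured. Windows of 25 neighbouring tested genes with a median log2 difference of 1 or more in size were merged where they overlapped. They gave 23 stretches, 10 higher in KYSE510 and 13 higher in KYSE150, with 1011 of 16581 ordered genes (6.10%). The stretches were picked by these values, so they carry no test. In the HCP5-silenced libraries, which were not used to pick them, the median had the same sign in 23 of 23. Those are libraries of the same lines, in which 98.2% of the genes called in controls kept their sign. A change of sign was therefore unlikely from the start. On 5q, 1 of the 10 rests on entries of the protocadherin cluster PCDHG, which make up 22 of the 22 genes higher in KYSE510 by 1 or more there. On 2q another rests on UGT1A entries, 10 of 15 such genes. Entries of each cluster share their last exons, so they are not independent neighbours, and with each cluster counted as 1 gene, an alternative chosen after seeing the data, 21 stretches were left, 8 higher in KYSE510 and 13 higher in KYSE150.

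**Figure D5:**
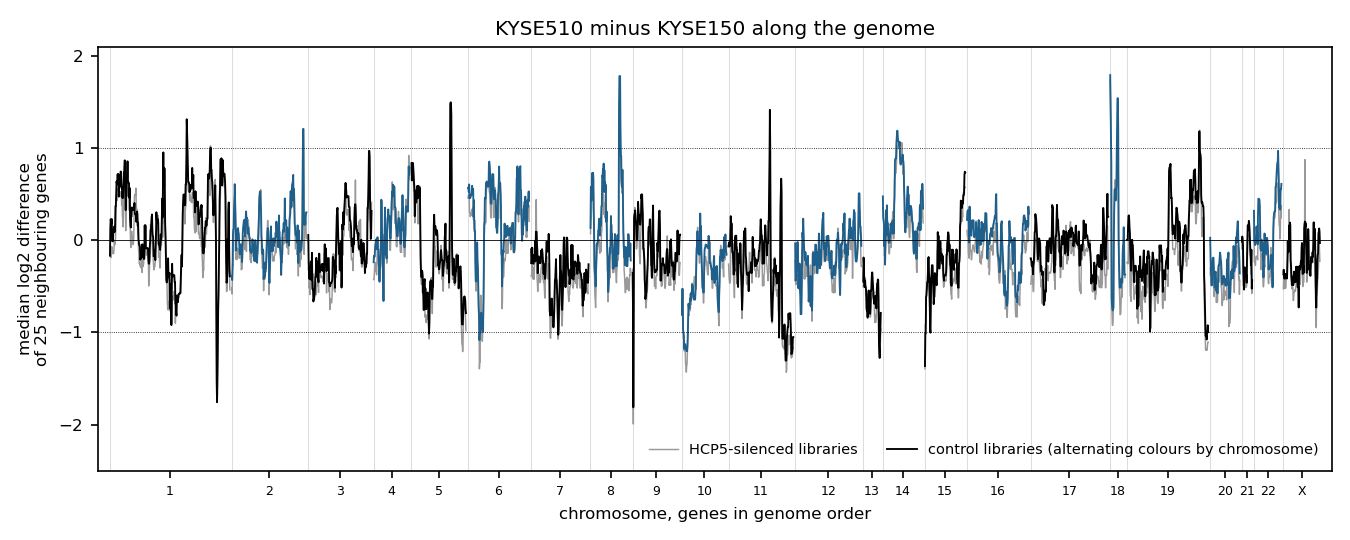
Median log2 difference (KYSE510 minus KYSE150) of 25 neighbouring genes, with genes in genome order along the x axis and chromosomes labelled, for control libraries (black and blue) and HCP5-silenced libraries (grey). Dotted lines mark the threshold of 1, and 10p, the distal part of 11q and the end of 19q lie below 0 while a part of chromosome 14 and the start of 18p lie above it.

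Whole chromosome arms moved too. On 10p, 103 of 143 genes were called higher in KYSE150 and 10 higher in KYSE510, with a median of -0.88. On 13q these were 182 and 16 of 269, with a median of -0.59. On 5p, 80 of 132 were higher in KYSE510 and 14 higher in KYSE150, with a median of 0.57. In the silenced libraries the medians of 10p, 13q and 5p were -0.87, -0.69 and 0.55, where the median over all genes was -0.19.

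The stretch on 10p (chromosome 10, 5195462 to 27155266) held 88 genes, 81 of them higher in KYSE150, with a median of -1.13. NMT2, an N-myristoyltransferase, had 34.3, 34.8 and 30.7 RPKM in KYSE150 and 4.75, 4.69 and 5.24 in KYSE510, and FAM171A1 was 11.2 ± 0.834 against 0.149 ± 0.0293 RPKM. The AKR1C genes described above lie at its edge and went the other way, as AKR1C4 did inside it at 0 against 2.40. Centred on each gene's mean over the 6 libraries, the median level of the stretch was 0.50 to 0.59 in the KYSE150 libraries and -0.62 to -0.48 in the KYSE510 libraries. On 11q, 78 of 94 genes (chromosome 11, 102452919 to 119015791) and 51 of 57 (chromosome 11, 122655675 to 134378341) were higher in KYSE150. ETS1, a transcription factor in the second of these, had 16.2, 12.6 and 16.8 RPKM in KYSE150 and 2.48, 2.35 and 2.85 in KYSE510, and BACE1, the beta-secretase, in the first was 6.39 ± 0.171 against 0.564 ± 0.0230. MMP1 and MMP10 lie in the first, as does MMP7, which had the opposite sign. YAP1 and BIRC2, toward the centromere and outside the stretch, were higher in KYSE510 (log2 differences 0.81 and 0.67).

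Toward the centromere on 11q13 (chromosome 11, 68261335 to 71997597), 21 of 33 genes were higher in KYSE510, with a median of 0.73. It holds CTTN, FADD, CCND1, ANO1 and DHCR7. At the end of 19q (chromosome 19, 57363477 to 58574797), 59 of 59 genes were higher in KYSE150, 51 of them called, with a median of -0.97. They include zinc finger genes such as ZNF530 at 1.43 against 0 RPKM and ZNF134 at 1.35 against 0. A second zinc finger cluster on 19q (chromosome 19, 52222225 to 54159882) went the other way, with 24 of 29 higher in KYSE510. ZNF761 there had 0.148, 0.165 and 0.196 RPKM in KYSE150 and 12.5, 15.1 and 14.4 in KYSE510, and ZNF28 had 0 in every KYSE150 library and 2.63, 3.74 and 3.18 RPKM in KYSE510. Zinc finger genes of a cluster share sequence, so reads between them are uncertain.

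The stretch with the largest median, 1.35, lay at the start of 18p (chromosome 18, 158383 to 9402420), with 28 of 38 genes higher in KYSE510. TYMS, the thymidylate synthase that fluorouracil drugs inhibit, had 46.3, 54.3 and 52.6 RPKM in KYSE150 and 288, 297 and 293 in KYSE510, and YES1, a SRC-family kinase, had 9.68, 9.67 and 11.2 RPKM in KYSE150 and 52.6, 80.2 and 69.9 in KYSE510. TGIF1, a repressor of TGF-beta signalling, was 1.73 ± 0.128 against 20.5 ± 0.400 RPKM. The level of this stretch was -0.75 to -0.66 in the KYSE150 libraries and 0.55 to 0.81 in the KYSE510 libraries. The arm as a whole had a median of -0.38, with 31 genes called higher in KYSE510 and 30 higher in KYSE150. On the long arm of chromosome 14 (chromosome 14, 49893092 to 59371405), 66 of 73 genes were higher in KYSE510, with a median of 1.05. FERMT2, an integrin activator, was 0.823 ± 0.120 against 7.68 ± 1.28 there and PELI2 had 0 in every KYSE150 library and 3.03, 5.45 and 4.03 RPKM in KYSE510. On 5q (chromosome 5, 72955981 to 77087323), 26 of 28 were higher in KYSE150, led by F2R, the thrombin receptor, at 18.1 ± 3.33 against 0.494 ± 0.233. On 15q (chromosome 15, 38454127 to 40664342), THBS1 (thrombospondin) had 361, 224 and 334 RPKM in KYSE150 and 34.0, 21.4 and 24.4 in KYSE510.

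The difference between the lines was seen again when both had HCP5 silenced. In those 6 libraries, 8404 of the 9739 genes called in controls (86.3%) were called with the same sign, and 9568 (98.2%) had the same sign. Of the 3618 called by 1 or more, 2940 were also called by 1 or more with the same sign, which is 81.3% of these and 79.6% of the 3692 called so in the silenced libraries. In the fit of all 12 libraries, limma called 0 of 16693 genes for a difference between the lines that itself differed between control and silenced cells. In that test 2102 genes had an unadjusted p under 0.05, and the lowest adjusted p was 0.184. With so few libraries in a group, 0 genes called does not show that the difference was the same in both arms. UBB, MAGEA4 and AKR1C2 had log2 differences of 9.04, -8.91 and 7.44 in the silenced libraries.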

How the data were processed

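RNA sequencing of the 2 cell lines was read from the table of RPKM that the authors deposited for 38516 genes, with exon positions and length. Per the submitters' processing notes, HISAT2 and DESeq were named and the build was GRCh38; the role of DESeq, the annotation release, strand and filters are not given in the sources used here. Per the labels, RNA was extracted with TRIzol. RPKM times length gave whole reads for 100% of values (tolerance 0.02).

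Values were used on log2(RPKM + 0.5), with limma 3.58.1 in R 4.3.3 (lmFit, eBayes with trend) on the 6 control libraries. P-values were two-sided and adjusted over 16693 genes, and the script was tested on simulated data. Exact permutation tests were run in Python 3.11.15. Genes spanning over 3 megabases were left out of genome order. Alternatives are given in the closing section.

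Replicates differed by far more than sampling noise (chi-square per gene 11.8 to 40.5). Gene lists, markers and the rule for named genes were chosen with earlier results of these data known. The rule takes the 10 largest differences each way with a mean of 10 RPKM or more, up to 3 members of each list each way and its highest member, and genes of the 10 leading stretches. The 10 largest differences and the up to 3 members had to be called, without overlap between the 2 groups of libraries. Both sets left out Y-linked genes, XIST, genes listed on several chromosomes, and symbols of the clone, date, antisense, LINC, microRNA and small RNA kinds. Other non-coding genes and pseudogenes stayed in. Other list members named were chosen after their values were seen. Lists are described by counts and medians only, and some of their genes are not reported here. Reads are also uncertain where another gene's exons overlap, as in TGFB2 (26.6% of exon bases), IFITM3 (21.3%) and IL6 (20.7%). MXD3 overlaps PRELID1 (22.5%) and, on the same strand, RAB24 (18.0%). TYMS overlaps ENOSF1 (18.8%) and TYMSOS (7.41%). The largest overlap was smaller in NQO1, BACE1, KRT13, HMGCS1, GAPDH, PRDX2, KLK5, ANO1, CCND1 and ALDOC.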

Additional observations from a re-analysis of the deposited data

How the results depend on the processing

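Under the other settings (pseudocount 1 or 0.1, no filter or 1 RPKM, all 12 libraries, centring, quantile normalization, voom on recovered reads, no trend), the genes called numbered 8727 to 11035 and those called by 1 or more 2746 to 4700. Leaving out 1 library gave 8282 to 9842 and 3570 to 3739. Same-numbered libraries of the 2 lines correlated in their deviations at 0.179, 0.0459 and 0.255, and libraries with different numbers at -0.28 to 0.17. The comparison was set as unpaired, so the main fit did not use the numbers. Whether they mark a shared culture or day was not tested. With a replicate block, 10388 genes were called and 3630 by 1 or more, and 8453 of the genes called in controls repeated in the silenced libraries. The 23 stretches became 55 with windows of 15 genes, 11 with 40 and 15 with pseudocount 1, and numbered 22 to 26 when 1 library was left out. The 117 genes near 0 became 201 when 10 reads were allowed and 633 when a mean of 1 RPKM was enough, and 118 to 129 when 1 library was left out. Of 210 named genes that were called, 203 were called in every alternative run. The other 7 were CCND1, CTGF, HCP5, KRT80, S100A11, SFN and TP63, whose highest adjusted p lay between 0.0639 and 0.108, and none of the 210 changed sign. Many of the 210 were named for a large difference in these same libraries. Their count was thus largely set by that choice and does not carry over to the other genes called. CALR, which was not called, had -0.13, between -0.31 and 0.088 when 1 library was left out and above 0 only without KYSE510 replicate 3; the cause was not tested. The share higher in KYSE510 among genes called stayed between 43.4% and 48.9%. A count of 3 reads in a gene of 1 kilobase equals 0.109 to 0.150 RPKM in these libraries, which limits what can be said of genes near 0.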

Other observations

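Some imprinted genes, of which normally a single parental copy is active, also separated the lines. H19, an imprinted non-coding RNA, had 1.80, 1.02 and 3.03 RPKM in KYSE150 and 217, 286 and 516 in KYSE510, a wide spread in KYSE510 but no overlap (log2 difference 7.11, SE 0.39, adjusted p = 7.8e-06). PEG10 and PLAGL1, also imprinted, were among the genes near 0 in KYSE150, at 14.4 ± 3.50 and 5.20 ± 0.931 RPKM in KYSE510. Imprinted genes of 15q went the other way, with SNURF at 4.98 against 0 RPKM, SNRPN, which overlaps it, at 2.16 against 0 and MKRN3 at 4.61 against 0.701 (means of KYSE150 against KYSE510, all called higher in KYSE150). The 15q genes lie in 1 of the 23 stretches (chromosome 15, 20379495 to 29968865), where 32 of 35 genes were higher in KYSE150 and 3 higher in KYSE510. Its median was -0.94, and CYFIP1 and TJP1 there had log2 differences of -1.82 and -1.54. Whether the difference of the 15q genes has to do with imprinting was not tested. All the imprinted genes named here were chosen after their values were seen.

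The CG content of promoters was compared as a description. RefSeq held the promoter of 44 of the 87 genes near 0 in KYSE150 and 14 of the 30 near 0 in KYSE510. Their median number of CG dinucleotides in 250 bases was 18 and 16.5, beside 21 over the genes tested. Fewer than 80% of the members had a value, so this check is void as a comparison.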
